A study of Rattus norvegicus with 9 samples.

Results

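Neurons that have just left the cell cycle move from their birthplace to their final layer and extend an axon on the way. During that period they rebuild the microtubule skeleton with neuron-specific tubulin and its regulators, carry a growth cone at the axon tip, and keep the transcription factors of early neuronal differentiation switched on. In the rat cortex most excitatory neurons have been born before birth, and in the first postnatal days the late-born ones are still settling in the upper layers while interneurons and neuroblasts continue to arrive. The genes described here are 10 genes known for this stage: Dcx, Tubb3, Stmn1 and Stmn2 of the microtubule skeleton, Gap43 and Dpysl3 of the growth cone, and the transcription factor genes Sox4, Sox11, Neurod1 and Neurod6. All probe sets that the array annotation assigns to exactly 1 of these symbols were taken, which gave 21 of the 31042 non-control probe sets, for 10 of the 14217 genes that the array names. Sox4 had 7 probe sets, Dcx, Tubb3, Stmn2, Gap43 and Dpysl3 had 2 each, and Stmn1, Sox11, Neurod1 and Neurod6 had 1 each.

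Cortical tissue was dissected from Hsd:Sprague Dawley rat pups of the F2b generation, aged 4 days after birth, and the RNA of 1 pup per litter was measured on an Affymetrix rat expression array of its own. The 3 control pups came from rats on a diet with 0 ppm of 4-methylimidazole (4-MeI, a small nitrogen heterocycle formed when food browns), and 3 pups each came from rats given 750 ppm and 2500 ppm in the diet. Exposure ran continuously through successive breedings and generations, so the compound reached the pups through their parents. The series title also names maternal seizures, but neither the dams that had them nor the sex of the pups is given. Values are log2 intensities after the robust multi-array average (RMA), in which a difference of 1 is a doubling. The precision is limited by the 3 arrays per group, and in whole tissue fewer cells of a type cannot be told apart from less RNA per cell.

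Arrays differed in ways that bear on these genes. On the first principal component, with 35.6% of the variance, control replicate 3 scored -25.2 against -8.64 and -9.47 in the other controls, while 750 ppm replicate 3 lay within the range of the 2500 ppm arrays, 10.3 to 18.8, and its group mates at -5.97 and -11.3. Striatal markers (13 of 15 listed genes measured, relative to their mean over all arrays) were at 0.28 to 0.68 in controls, at 0.67, 0.57 and -0.95 in the 750 ppm arrays, and at -0.99 to -0.087 in the 2500 ppm arrays. Dlx1, Dlx5, Gad1 and Gad2 followed the same split. They were the 4 measured of 10 genes listed for immature interneurons and neuroblasts bound for the olfactory bulb, and are not particular to those cells. The mean of these 4 genes was 0.24 to 0.44 in controls, 0.59, 0.55 and -0.69 in the 750 ppm arrays, and -0.59 to -0.39 in the 2500 ppm arrays. Meningeal genes (13 of 14 listed genes measured) were at -1.30 to -0.17 in controls, 0.38 to 0.64 at 750 ppm and -0.020 to 0.43 at 2500 ppm. Choroid plexus genes (6 of 10 listed genes measured) were at -0.83 to -0.66, -0.51 to -0.26 and 0.37 to 1.61. At 2500 ppm Ttr, Sostdc1 and Folr1 among them differed from control by 5.67, 3.04 and 1.83. The others, Aqp1, Prlr and Kcnj13, differed by 0.32, 0.19 and -0.014. What part these differences had in the results below was not tested.

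The members were strongly measured in this tissue. Each of the 10 genes had at least 1 probe set above the filter on dim signals, which left out probe sets with a mean under 6.35. The brightest probe set of each gene lay between the 85.8th percentile of all probe sets, for Neurod1, and rank 12 of 31042, for Stmn1. Bhlhe22, a transcription factor gene of cortical excitatory neurons, averaged 13.06, while Tbr1 and Eomes, which mark early-born neurons and intermediate progenitors, averaged 5.96 and 6.33 and were below the filter. Each value is that of the gene's brightest probe set, and without a detection call a low value does not show that the RNA was absent. Eomes was at 7.20 and 7.65 in 750 ppm replicates 1 and 2 and at 5.45 to 6.27 on the other 7 arrays. The cerebellar granule cell receptor gene Gabra6, at 5.46, was also below it. In all, 19 of the 21 probe sets were tested. The 2 left out were a Tubb3 probe set (1369901_at), with a mean of 5.54, and a Gap43 probe set (1371287_at), whose mean of 3.50 lay close to the lowest value on any array, 3.27.

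No member probe set passed the test in any comparison (limma, Benjamini-Hochberg adjusted p under 0.05 over 21729 probe sets). For 750 ppm against control 0 of 19 passed, where 0.0092% of all probe sets did, and the smallest adjusted p was 0.201. For 2500 ppm against control 0 of 19 passed, where 0.686% did, with a smallest adjusted p of 0.107. For 2500 ppm against 750 ppm 0 of 19 passed, where 0.322% did, with a smallest adjusted p of 0.357. At an unadjusted p under 0.05, 1 member probe set was lower at 750 ppm against control, beside 10.1% of all probe sets in either direction and 4.37% lower. At 2500 ppm against control 3 were lower, beside 16.0% in either direction and 9.12% lower. At 2500 ppm against 750 ppm 1 was higher and 1 lower, beside 12.6% in either direction, 5.25% higher and 7.33% lower. The median change of the 19 was -0.018 at 750 ppm and -0.12 at 2500 ppm against control, beside 0.0023 and 0.0070 over all probe sets tested. The 2 contrasts with control share the same 3 control arrays.

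**Figure D1:**
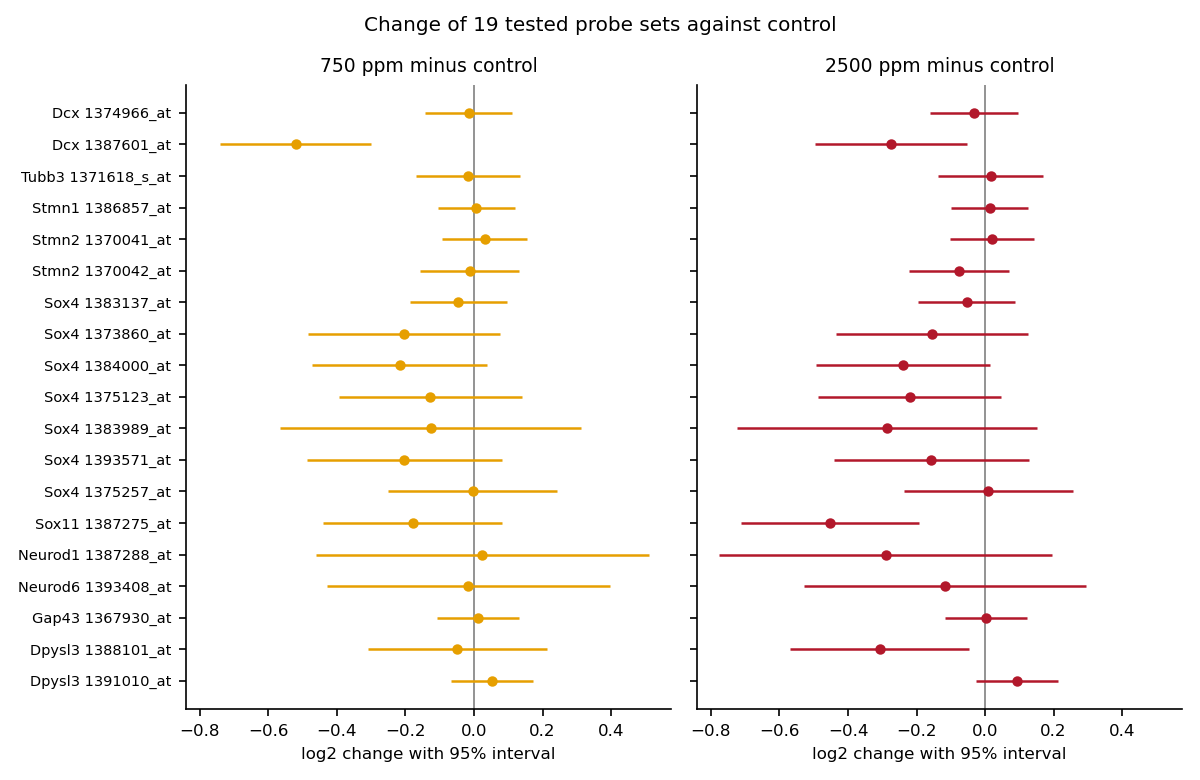
Log2 change (horizontal axis) of the 19 tested probe sets at 750 ppm (left) and 2500 ppm (right) minus control, with unadjusted 95% intervals from the model on 3 arrays per group. Intervals lie wholly below 0 for the Dcx probe set 1387601_at in both panels and for Sox11 and the Dpysl3 probe set 1388101_at at 2500 ppm, and none of these changes passed after adjustment.

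Dcx encodes doublecortin, a microtubule-binding protein of migrating neurons, and lies on the X chromosome of the GRCr8 assembly from 112227455 to 112370291. Its 2 probe sets gave different pictures. On 1387601_at, annotated to the RefSeq mRNA, the controls were at 8.18, 8.12 and 8.10, the 750 ppm arrays at 7.59, 7.74 and 7.52, and the 2500 ppm arrays at 7.82, 8.07 and 7.69. All 6 exposed arrays were below all 3 controls, with the 750 ppm group lowest and the 2500 ppm group between. The means were 8.13 ± 0.041 in controls, 7.62 ± 0.11 at 750 ppm and 7.86 ± 0.19 at 2500 ppm (SD, n = 3 each). On 1374966_at, annotated to another GenBank sequence, the controls were at 13.47, 13.52 and 13.58, the 750 ppm arrays at 13.53, 13.52 and 13.48, and the 2500 ppm arrays at 13.45, 13.55 and 13.48. These 3 groups overlapped fully, over a range of 0.14.

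The change of Dcx at 750 ppm against control was therefore -0.52 (SE 0.098, adjusted p = 0.201) on 1387601_at, a fold of 0.698 with a 95% interval of 0.599 to 0.813, and -0.016 (SE 0.057, adjusted p = 0.940) on 1374966_at, a fold of 0.989 with an interval of 0.905 to 1.08. At 2500 ppm against control they were at -0.27 (SE 0.098, adjusted p = 0.215) and -0.033 (SE 0.057, adjusted p = 0.810). The 2 intervals at 750 ppm did not overlap. The disagreement was also measured within arrays, as the log2 value of 1387601_at minus that of 1374966_at. This gap was -5.94, -5.78 and -5.96 at 750 ppm against -5.30, -5.39 and -5.48 in controls, a difference of -0.50, without overlap. At 2500 ppm it was -5.63, -5.48 and -5.79, which differed from controls by -0.24, also without overlap. The disagreement was known when these genes were chosen, so the intervals and the gap only describe it and do not test it. Among all probe sets 1374966_at ranked 225 of 31042 and 1387601_at stood at the 52.7th percentile. Averaging both, an alternative added after seeing the data, gave -0.27 at 750 ppm (adjusted p = 0.193) and -0.15 at 2500 ppm (adjusted p = 0.294).

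The dimmer Dcx probe set kept its sign at 750 ppm each time 1 array was left out, with changes from -0.58 to -0.47 and adjusted p between 0.120 and 0.665. With array weights, which let the model count arrays unequally, it passed at 750 ppm with a change of -0.51 and an adjusted p of 0.0313. In that fit 340 of the 21729 probe sets passed, and control replicate 1 carried a weight of 5.61 against 0.261 to 1.73 for the other arrays. Among 16148 other tested probe sets with 1 symbol, those closest to it over the 9 arrays belonged to Agap2, Setd1b and Kdm6b. The root mean square difference of their profiles from that of Dcx was 0.071, 0.093 and 0.10 log2 units, where the Dcx profile itself varied by 0.24. Agap2, which encodes a GTPase-activating protein bound to a kinase of the phosphoinositide pathway, differed by -0.45 at 750 ppm and -0.28 at 2500 ppm against control (adjusted p = 0.214 and 0.250). Setd1b and Kdm6b, which encode a histone methyltransferase and a histone demethylase, differed by -0.41 and -0.39 at 750 ppm (adjusted p = 0.279 and 0.256). The probe sets closest to 1374966_at belonged to Prrc2b, Nob1 and Map4k3, at 0.013 to 0.019 log2 units, and their changes against control lay between -0.073 and 0.015. All these genes were picked for closeness to a Dcx profile over the same arrays, so the likeness of their changes follows from the choice.

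**Figure D2:**
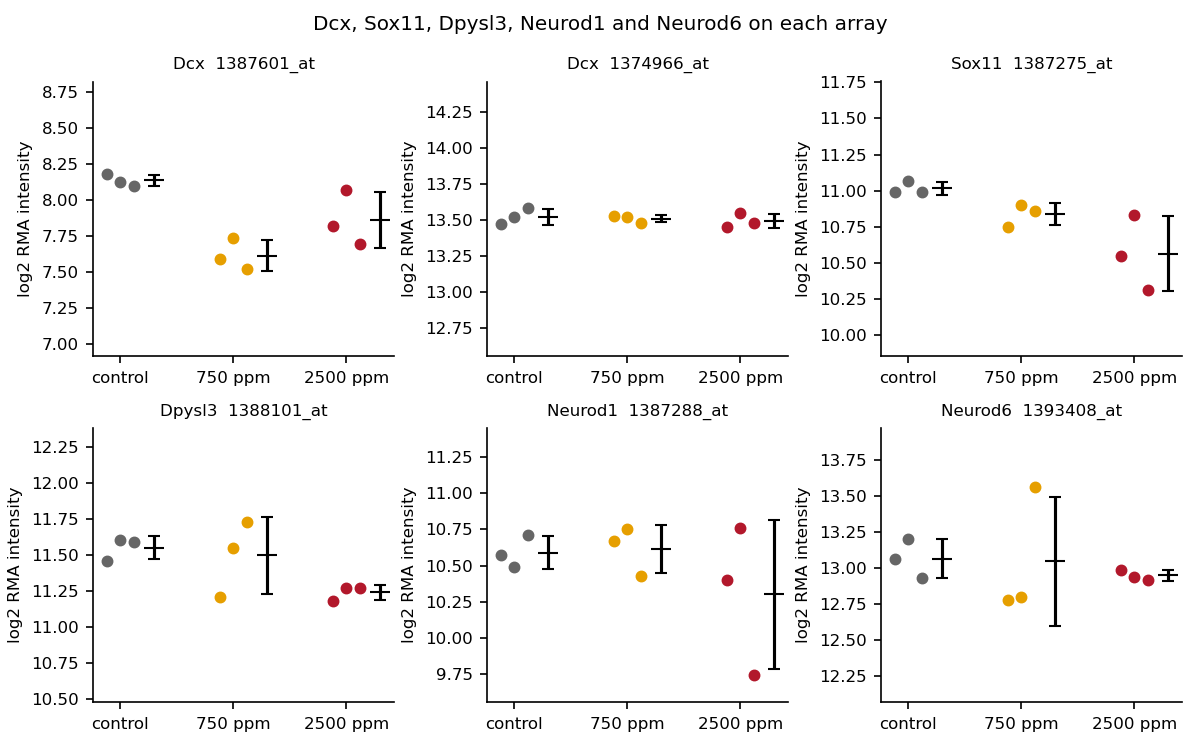
Log2 RMA intensity (vertical axis, the same span in every panel) of 6 probe sets on each array, with points for the 3 pups of a group and bars for mean ± SD. The Dcx probe set 1387601_at is below the controls on all 6 exposed arrays while 1374966_at stays within 13.45 to 13.58. Sox11 is lowest at 2500 ppm, and Neurod1 and Neurod6 each have 1 array far from its group.

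Tubb3 encodes the neuron-specific class III beta-tubulin. On its bright probe set 1371618_s_at, whose suffix marks probes shared with other transcripts, the controls were at 13.90, 13.98 and 13.88, the 750 ppm arrays at 13.84, 13.84 and 14.03, and the 2500 ppm arrays at 13.92, 13.94 and 13.95. The groups overlapped. The change was -0.018 at 750 ppm (95% interval -0.17 to 0.13) and 0.016 at 2500 ppm (-0.14 to 0.17), with adjusted p of 0.945 and 0.926. The dim Tubb3 probe set was at 5.33 to 5.51 at 750 ppm and 5.57 to 5.72 at 2500 ppm, against 5.50 to 5.61 in controls, all below the filter.

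Stmn1 and Stmn2 encode stathmin and SCG10, proteins that bind tubulin dimers and destabilise microtubules; stathmin is also abundant in dividing cells, while SCG10 is a protein of growing axons. Stmn1 was at 14.67, 14.70 and 14.65 in controls, 14.68, 14.66 and 14.70 at 750 ppm, and 14.68, 14.69 and 14.69 at 2500 ppm, a range of 0.055 over all 9 arrays. Its change was 0.0065 at 750 ppm (95% interval -0.11 to 0.12) and 0.013 at 2500 ppm (-0.099 to 0.13). Stmn2 on 1370041_at was at 14.49 to 14.51 in controls, 14.47 to 14.60 at 750 ppm and 14.50 to 14.54 at 2500 ppm. Its second probe set, 1370042_at, was at 14.13 to 14.25, 14.10 to 14.26 and 14.06 to 14.14, and differed by -0.013 at 750 ppm and -0.076 at 2500 ppm (adjusted p = 0.961 and 0.595). These probe sets ranked 12, 21 and 55 of 31042 and lay within 1 log2 unit of the highest value on any array, 15.04. RMA values carry no saturation call, so how far such bright probe sets can still follow a change was not tested.

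Gap43 encodes the growth-associated protein of the growth cone membrane, and Dpysl3 encodes CRMP4, a collapsin response mediator protein that links guidance signals to actin and microtubules. Gap43 on 1367930_at was at 14.38, 14.42 and 14.36 in controls, 14.37, 14.38 and 14.46 at 750 ppm and 14.39, 14.37 and 14.41 at 2500 ppm. It ranked 31 of 31042 and differed by 0.012 at 750 ppm (95% interval -0.11 to 0.13) and 0.0027 at 2500 ppm (-0.12 to 0.12). The 3 groups overlapped.

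Dpysl3 on 1388101_at was at 11.46, 11.60 and 11.59 in controls, at 11.21, 11.55 and 11.73 at 750 ppm, and at 11.18, 11.27 and 11.27 at 2500 ppm. The 2500 ppm arrays were all below the controls, and the 750 ppm arrays spread over both ranges. The change at 2500 ppm was -0.31 (SE 0.12, adjusted p = 0.238), a fold of 0.808 with an interval of 0.674 to 0.969, and the change at 750 ppm was -0.048 (SE 0.12, adjusted p = 0.905). The other Dpysl3 probe set, 1391010_at, differed the other way. It was at 6.90, 6.95 and 6.91 at 2500 ppm against 6.80, 6.83 and 6.84 in controls, a difference of 0.093 (SE 0.053, adjusted p = 0.428). The gap between the 2 probe sets, 1391010_at minus 1388101_at within each array, was -4.28 to -4.36 at 2500 ppm against -4.66 to -4.76 in controls, a difference of 0.40 (exact permutation p = 0.1, two-sided, the smallest that 3 arrays against 3 allow). Each Dpysl3 probe set had already separated these groups, in opposite directions. The p of their gap was therefore fixed in advance and does not test the disagreement. The gap between the Stmn2 probe sets, 1370042_at minus 1370041_at, gave the same p at 2500 ppm with a difference of -0.096. With a mean of 6.87, 1391010_at lay only just above the filter. Averaging both left -0.11 at 2500 ppm (adjusted p = 0.512).

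Sox4 and Sox11 encode related SoxC transcription factors, which switch on pan-neuronal genes such as Tubb3 and Dcx in newborn neurons. Sox11, on chromosome 6 of GRCr8 from 49736773 to 49738794, had the smallest p of the members at 2500 ppm. It was at 10.99, 11.07 and 10.99 in controls, at 10.75, 10.90 and 10.86 at 750 ppm, and at 10.55, 10.83 and 10.31 at 2500 ppm. Both exposed groups lay below all controls, and the 2500 ppm arrays overlapped the 750 ppm arrays. The change was -0.45 at 2500 ppm against control (SE 0.12, adjusted p = 0.107), a fold of 0.730 with an interval of 0.610 to 0.874. It was -0.18 at 750 ppm against control (SE 0.12, adjusted p = 0.601) and -0.27 at 2500 ppm against 750 ppm (SE 0.12, adjusted p = 0.377). Leaving out 1 array at a time, the 2500 ppm change ran from -0.59 without 2500 ppm replicate 2 to -0.33 without 2500 ppm replicate 3, with adjusted p of 0.0705 to 0.260. With array weights it was -0.43 and passed (adjusted p = 0.0379), in a fit that called 1495 probe sets where the unweighted fit called 149. On the 2500 ppm arrays the striatal mean was -0.99, -0.087 and -0.60 and the Dlx and Gad mean was -0.59 to -0.39. In 750 ppm replicate 3, where these means were -0.95 and -0.69, Sox11 was at 10.86, between the other arrays of its group.

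Sox4, on chromosome 17 from 35876298 to 35881004, was measured by 7 probe sets with means from 6.52 to 13.70. On the brightest, 1383137_at, the controls were at 13.70, 13.69 and 13.81, the 750 ppm arrays at 13.73, 13.72 and 13.61, and the 2500 ppm arrays at 13.65, 13.74 and 13.65. The groups overlapped on it, with changes of -0.045 at 750 ppm and -0.054 at 2500 ppm. Over the 7 probe sets the changes lay between -0.22 and -0.0041 at 750 ppm and between -0.29 and 0.0093 at 2500 ppm, with 7 and 6 of them below 0. The largest sizes were -0.22 at 750 ppm on 1384000_at (SE 0.11, adjusted p = 0.547) and -0.29 at 2500 ppm on 1383989_at (SE 0.20, adjusted p = 0.506). Only 1375123_at separated a pair of groups, with 9.58, 9.68 and 9.58 at 2500 ppm against 9.72, 9.76 and 10.02 in controls (-0.22, SE 0.12, adjusted p = 0.405).

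The Sox4 probe sets measure 1 gene and are not independent. They shared a pattern over single arrays that crossed the groups. Relative to its own mean over 9 arrays, the average of the 7 was 0.25 in control replicate 3 and 0.14 in 750 ppm replicate 2, and it was -0.19 in 750 ppm replicate 3 and -0.11 in 2500 ppm replicate 3. Control replicate 3 was the highest array on 5 of the 7 and 750 ppm replicate 3 the lowest on 5 of the 7. These are the arrays that stood apart within their groups on the first principal component. Without both of them, a choice made after seeing the data, the 7 changes at 750 ppm against control lay between -0.064 on 1393571_at and 0.19 on 1383989_at, with 4 below 0 and 3 above. On the probe sets where these arrays are the highest control and the lowest 750 ppm array, leaving them out can only move the change upward. The average of the 7 probe sets differed by -0.13 at 750 ppm (SE 0.095, adjusted p = 0.627) and -0.16 at 2500 ppm (SE 0.095, adjusted p = 0.441).

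**Figure D3:**
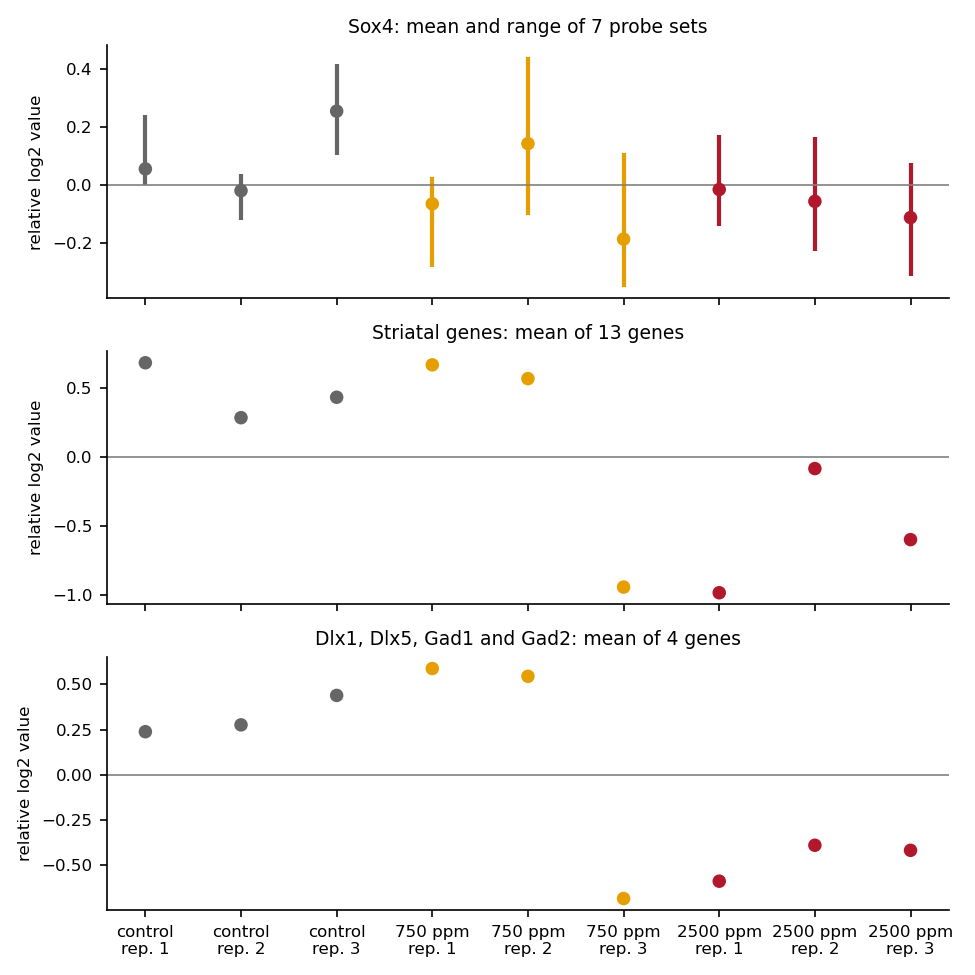
Relative log2 value (vertical axes, each gene or probe set minus its own mean over 9 arrays) on each array, for Sox4 (point: mean of 7 probe sets, line: their range), 13 striatal genes, and the 4 genes Dlx1, Dlx5, Gad1 and Gad2. Sox4 is highest in control replicate 3, at 0.25, and lowest in 750 ppm replicate 3, at -0.19, where the striatal mean is -0.95 and the Dlx and Gad mean is -0.69. On the 2500 ppm arrays Sox4 is at -0.015, -0.056 and -0.11, with striatal means of -0.99, -0.087 and -0.60. A link between them was not tested.

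Neurod1 and Neurod6 encode basic helix-loop-helix factors of excitatory neurons; Neurod1 acts early, at the step from progenitor to neuron, and Neurod6 marks neurons that are settling in the cortex. Neurod1 was at 10.57, 10.49 and 10.71 in controls, at 10.67, 10.75 and 10.43 at 750 ppm, and at 10.40, 10.76 and 9.74 at 2500 ppm. The groups overlapped, and 2500 ppm replicate 3 alone was far below the other 8 arrays. The change at 2500 ppm was -0.29 (SE 0.22, adjusted p = 0.542) with all arrays and -0.011 without that array, and the change at 750 ppm was 0.025 (SE 0.22, adjusted p = 0.980). The same array was the lowest for Sox11.

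Neurod6 was at 13.06, 13.20 and 12.93 in controls, at 12.78, 12.80 and 13.56 at 750 ppm, and at 12.99, 12.94 and 12.92 at 2500 ppm. In the 750 ppm group 2 arrays were below all controls and replicate 3 was above every other array of the study. The change at 750 ppm was -0.016 (SE 0.18, adjusted p = 0.985), and it was -0.27 without 750 ppm replicate 3 (adjusted p = 0.223). Without that array and control replicate 3, a choice made after seeing the data, it was -0.34 (adjusted p = 0.0990). They are the highest 750 ppm array and the lowest control, so leaving them out can only move the change downward. At 2500 ppm the change was -0.12 (SE 0.18, adjusted p = 0.789). In 750 ppm replicate 3, where Neurod6 was highest, the striatal markers stood at -0.95 and Sox4 was lowest. On the 2500 ppm arrays the striatal means were -0.99, -0.087 and -0.60, with Neurod6 at 12.99, 12.94 and 12.92. A link between them was not tested.

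**Figure D4:**
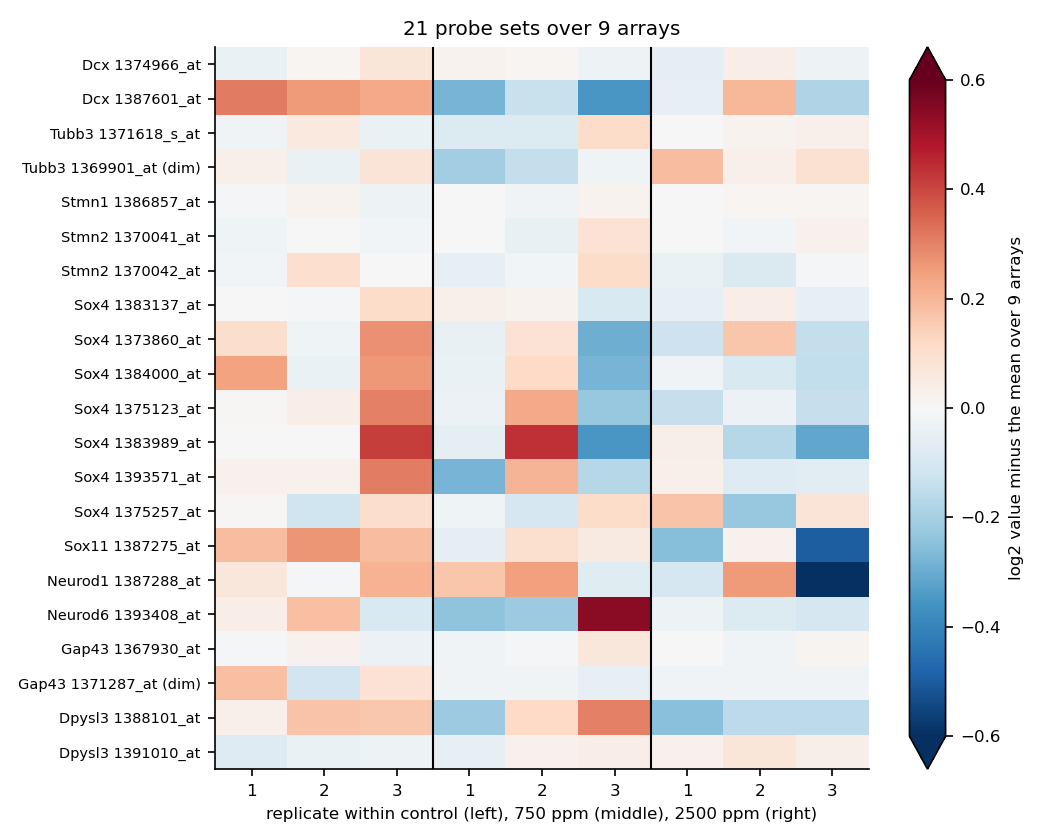
Log2 value minus the probe set's mean over 9 arrays (colour, from -0.6 to 0.6) for all 21 probe sets (rows) on 9 arrays (columns, replicates 1 to 3 of control, 750 ppm and 2500 ppm). Stmn1, Stmn2, Gap43 and the bright Tubb3 and Dcx probe sets stay pale throughout, most Sox4 rows change together between single arrays, and the darkest cells are Neurod6 in 750 ppm replicate 3 and Neurod1 in 2500 ppm replicate 3.

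On the deposited values more of the 19 tested member probe sets were below 0 than above it in all 3 comparisons, though 7 of the 19 measure Sox4. Whether the members share a direction was not tested. Below 0 were 14 of 19 probe sets at 750 ppm against control, beside 49.1% of all probe sets, and 13 of 19 at 2500 ppm, beside 47.8%. At 2500 ppm against 750 ppm 12 of 19 were below 0, beside 52.1%. Outside Sox4, 7 of 12 were below 0 in both contrasts with control and 8 of 12 at 2500 ppm against 750 ppm. With each array centred on its median, 17, 13 and 7 of the 19 were below 0 in these 3 comparisons. The other 2, 6 and 12 were above 0, beside 40.9%, 58.5% and 64.2% of all probe sets above 0. With 1 probe set per gene, the one with the highest mean, 6 of 10 genes were below 0 in both contrasts, beside 43.0% and 42.6% of 11606 genes. The groups did not overlap for 2 of 19 probe sets at 750 ppm, both lower, beside 14.2% of all probe sets and 6.58% lower. At 2500 ppm they did not overlap for 5 of 19, with 4 lower and 1 higher, beside 23.3% of all probe sets, 13.4% lower and 9.87% higher. Between 2500 ppm and 750 ppm they overlapped for all 19, beside 17.4% of all probe sets without overlap. In that last comparison the lowest change was that of Neurod1, -0.31 (SE 0.22, adjusted p = 0.583), and the highest that of the dimmer Dcx probe set, 0.25 (SE 0.098, adjusted p = 0.357).

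Other genes of neuronal migration and axon growth gave no call either, each taken on its probe set with the highest mean. Of 14 tubulin and microtubule-associated genes 0 passed in either contrast with control, and 0 had an unadjusted p under 0.05. Their medians were -0.012 at 750 ppm and 0.0023 at 2500 ppm, beside 0.018 and 0.020 over 11606 genes, of which 0.00862% and 0.612% passed. The stathmin family gene Stmn4 was 0.15 above control at 750 ppm (SE 0.073, adjusted p = 0.511). Pafah1b1, which encodes the dynein regulator LIS1, was at -0.18 at 2500 ppm (SE 0.089, adjusted p = 0.357). Its partner gene Nde1 was at 0.19 (SE 0.11, adjusted p = 0.457).

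Of 13 genes of migration signalling, 0 passed. At an unadjusted p under 0.05, 1 was higher and 2 were lower at 750 ppm, and 1 was higher and 2 were lower at 2500 ppm, beside 7.14% and 2.69% of genes at 750 ppm and 8.56% and 6.27% at 2500 ppm. Rnd3, a gene needed for radial migration of cortical neurons in the mouse, averaged 10.54 ± 0.070 at 2500 ppm against 11.18 ± 0.11 in controls (SD, n = 3 each), a change of -0.64 (SE 0.14, adjusted p = 0.0786). At 750 ppm it was at 11.04, 11.01 and 10.47, a change of -0.34 (adjusted p = 0.459). Cdk5r1 encodes p35, the activator of the kinase Cdk5, which phosphorylates doublecortin. It averaged 8.87 ± 0.091 at 2500 ppm against 9.22 ± 0.14 in controls, a change of -0.35 (SE 0.084, adjusted p = 0.0979), and differed by -0.25 at 750 ppm (adjusted p = 0.368). The chemokine gene Cxcl12, which the meninges secrete, was 0.52 above control at 750 ppm (SE 0.17, adjusted p = 0.337) in arrays where the meningeal mean was 0.38 to 0.64 against -1.30 to -0.17 in controls.

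Of 16 growth cone and axon adhesion genes, 0 passed, and at an unadjusted p under 0.05 there was 1 lower at 750 ppm, with 1 higher and 2 lower at 2500 ppm, beside 2.69% of all genes lower at 750 ppm and 8.56% higher and 6.27% lower at 2500 ppm. Robo1, which encodes a receptor for the repellent Slit, was at 8.33, 8.61 and 8.47 at 2500 ppm against 8.86, 8.91 and 8.80 in controls, without overlap. Its change was -0.39 (SE 0.082, adjusted p = 0.0704), and it was 0.00058 at 750 ppm. The semaphorin co-receptor gene Nrp1 differed by 0.40 at 2500 ppm (SE 0.12, adjusted p = 0.160), and the adhesion molecule gene Ncam1 by -0.23 at both concentrations (adjusted p = 0.428 at 750 ppm and 0.230 at 2500 ppm).

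Of 10 transcription factor genes of neuronal differentiation on the array 5 were above the filter, and 0 of these passed. At an unadjusted p under 0.05, 2 were higher at 2500 ppm, beside 8.56% of all genes. Bhlhe22 differed by 0.16 at 2500 ppm (SE 0.070, adjusted p = 0.302). Zbtb18, which encodes a transcriptional repressor that acts in cortical neurons, differed by -0.21 at 750 ppm (SE 0.11, adjusted p = 0.535). Neurog1 differed by 0.22 at 2500 ppm (SE 0.066, adjusted p = 0.155), at a mean of 6.44, only just above the filter. Genes of the stages before and after the immature neuron were also without a call in both contrasts with control. Of 12 progenitor and radial glia genes, such as Fabp7 and Slc1a3, 7 were above 0 and 5 below at 750 ppm, and 5 above and 7 below at 2500 ppm, with medians of 0.010 and -0.074. Their mean over single arrays was -0.16 to 0.15 in controls, 0.21, 0.16 and -0.37 at 750 ppm and -0.11 to 0.080 at 2500 ppm, so 750 ppm replicate 3 stood below every other array. Only Vim, the gene of an intermediate filament of radial glia and of many non-neuronal cells, had an unadjusted p under 0.05, with 0.56 at 750 ppm and 0.59 at 2500 ppm (SE 0.16, adjusted p = 0.282 and 0.134). Of all genes, 7.14% were higher at that threshold at 750 ppm and 8.56% at 2500 ppm. Of 11 mature neuron genes, such as Snap25 and Vsnl1, 6 were above 0 and 5 below at 750 ppm, and 8 above and 3 below at 2500 ppm, with medians of 0.028 and 0.078. At an unadjusted p under 0.05 there were 0 of them at 750 ppm, beside 7.14% of all genes higher and 2.69% lower. At 2500 ppm 1 was higher (Syn1, 0.14) and 1 lower (Camk2a, -0.52), beside 8.56% higher and 6.27% lower.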

How the data were processed

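Per the submitters' processing notes, the arrays were read with affy and summarised by RMA, which corrects background, quantile-normalizes arrays and combines the probes of a set; versions are not given in the sources used here. The deposited values are on the log2 scale, 1 per probe set for 31099 probe sets on 9 arrays, with no detection or saturation call. Each amplification started from 100 ng of RNA and ran for 16 hours, per the labels' protocols. After removal of 57 control probe sets, the dimmest 30% by mean were dropped, which left 21729. A model with a mean for each group used the 9 arrays together in limma 3.58.1 (R 4.3.3, statmod 1.5.0) with empirical Bayes variances (prior degrees of freedom 3.25, median residual SD 0.108). P-values are two-sided, adjusted by Benjamini-Hochberg over all probe sets tested, threshold 0.05; intervals are unadjusted. The model was tested on simulated data with independent noise for each probe set. These data held no differences shared over a whole array, so that test does not cover such differences. Each pup came from its own litter and had its own array. The spread behind the p-values therefore combines differences between litters, pups and arrays, which cannot be told apart here.

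Symbols came from the platform annotation, updated by Entrez identifier; 20826 probe sets had 1 symbol, 436 several and 9780 none. Positions are those of genes in GRCr8, not of probes, and probe sequences were not used here. The members and lists were chosen with earlier results of these data known. Named genes are all members, up to 3 per pathway list by unadjusted p against control, the brightest markers, and the 3 closest profiles to each Dcx probe set. Alternatives were other filters, median-centring, a second quantile normalization, a replicate block, another variance model, array weights, only the groups compared, 1 probe set per gene and leaving out each array. Averaging probe sets and leaving out 2 arrays were chosen after seeing the data.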

Additional observations from a re-analysis of the deposited data

How the results depend on the processing

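Every member stayed short of the threshold under each alternative, except with array weights, where 1 member probe set passed at 750 ppm against control (Dcx 1387601_at) and 1 at 2500 ppm against control (Sox11). No single array left out brought a member past it. Changes smaller than their standard error were given no direction; among the others, Sox4 1375123_at at 750 ppm against control was -0.13 with all arrays, 0.064 with array weights, and between -0.25 and 0.072 with arrays left out, the highest value being without both control replicate 3 and 750 ppm replicate 3. With each array centred on its median the median of all probe sets at 750 ppm stood at -0.025, and the calls at 2500 ppm split into 91 higher and 75 lower, where the uncentred values gave 61 and 88. The count over all probe sets moved far more. At 750 ppm it was 2, between 0 and 48 when 1 array was left out and 71 without both arrays. At 2500 ppm it was 149, between 9 and 466 when 1 array was left out, 263 without both, 481 with only the groups compared and 66 with 1 probe set per gene. For 2500 ppm against 750 ppm it was 70, between 13 and 731 when 1 array was left out, 1149 without both and 14 with only the groups compared. Array weights gave 340, 1495 and 721. The cause of these differences was not tested. The replicate number as a block gave 0 member calls, and 2, 122 and 36 calls over all probe sets. Same-numbered arrays of different groups deviated together, with a correlation over 0.1, in 3 of 9 pairs (correlations from -0.21 to 0.31). With 3 arrays per group these correlations cannot decide whether the numbers pair the pups. The lack of replicate arrays beyond 3 per group limits all of this: the interval of Neurod1 at 2500 ppm ran from a fold of 0.584 to 1.15.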

Other observations

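Lists of other cell types gave 0 calls against control, apart from 1 striatal gene (Tac1, lower), 1 meningeal gene (Aldh1a2, higher) and 1 choroid plexus gene (Ttr, higher) at 2500 ppm. Over all genes 0.00862% passed at 750 ppm and 0.612% at 2500 ppm. At an unadjusted p under 0.05, all 13 meningeal genes were higher in both contrasts (medians 1.29 and 0.88), beside 7.14% and 8.56% of all genes. Of 13 striatal genes 3 were lower at 750 ppm and 8 at 2500 ppm (medians -0.43 and -1.10), beside 2.69% and 6.27%. For the counts above 0 that follow, 43.0% and 42.6% of all genes were below 0. Of 8 endothelial genes all were above 0 in both contrasts with control, with medians of 0.46 at 750 ppm and 0.38 at 2500 ppm, and of 8 microglial genes 7 were above 0 at 750 ppm and 8 at 2500 ppm, with medians of 0.32 and 0.22. Of 7 astrocyte genes, 3 were above 0 at 750 ppm and 4 at 2500 ppm, with medians of -0.0054 and 0.0024. Of 6 oligodendrocyte lineage genes, 1 was above 0 at 750 ppm and 4 at 2500 ppm, with medians of -0.061 and 0.083. Of 5 hippocampal and dentate genes, 3 were above 0 in both contrasts, with medians of 0.027 and 0.031. All 4 measured cerebellar granule genes were above 0 in both contrasts, with medians of 0.12 and 0.084.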
